A study of Mus musculus with 2 samples.

Results

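The genes described here were 8 genes of the erythroid and megakaryocyte lineages, Gata1, Klf1, Epor, Car1, Car2, Tfrc, Pf4 and Itga2b, out of 24421 gene symbols in the deposited values. They were chosen by symbol alone, and all 8 were listed above 0 in both libraries. RNA was sequenced from granulocyte-monocyte progenitors (GMPs), the bone marrow progenitors of granulocytes and monocytes, after purification by flow cytometry. One group was female mice without tumors (NTB-GMP) and the other was female mice carrying orthotopic implants of 4T1 cells (4T1-GMP), a line from a mouse mammary carcinoma. Both groups had the F1 semi-syngeneic H-2b/d background, and the control mice received no tumor. Each group was 1 library, with no replicates, so no p-value is given. The sources used here state neither how many mice went into a library nor how long the tumors had grown.

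Erythroid cells and megakaryocytes arise from a progenitor that branches away from the GMP lineage, and both rely on GATA factors for their identity. Gata1 encodes the transcription factor that drives both fates, together with its cofactor encoded by Zfpm1, and Klf1 encodes the factor that activates globin and red cell membrane genes. In a clean GMP sort, genes confined to red cell precursors or platelets have little RNA, whereas genes with a wider use, such as the transferrin receptor gene Tfrc, do not mark a lineage. The comparison asked how much RNA of these genes the sorted GMPs held and whether the amount differed between NTB-GMP and 4T1-GMP.

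The gate is part of that question. For flow cytometry, the study defined GMPs as lineage-negative, Sca-1-negative, c-Kit-positive cells that lacked CD41 and CD150 and had high CD16/32. For sorting GMPs into culture, the antibodies listed were to CD150, CD16/32, Sca-1 and c-Kit, without CD41. Itga2b encodes CD41, so its RNA would not be independent of the first gate. The erythroid surface antigen Ter-119 was among the lineage markers of both. The sources used here do not state which gate was used for these libraries.

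The values were deposited as RPKM, reads scaled to gene length and library size, and under 1 RPKM is called near 0 here. The library sizes behind the values were 10180365 reads for NTB-GMP and, at 2.95 times that depth, 30016263 reads for 4T1-GMP. Ratios are 4T1-GMP over NTB-GMP, given as log2 of RPKM with 0.1 added, which understates the change of low genes. Fold differences are ratios of the RPKM themselves, with 95% Clopper-Pearson intervals from the recovered reads. Intervals cover counting error only, because each group was 1 library and gave no replicate spread. Reads made by PCR without molecular identifiers are not independent molecules, so the counting error itself may be understated. The ribosomal RNA precursor Rn45s took at least 17.0% of the NTB-GMP library size and 6.98% of the 4T1-GMP one. Removing its reads from both would shift each log2 ratio without the added 0.1 by -0.16. With 0.1 added, the shift of low genes differs from that value. Over the 10378 genes with a mean of at least 1 RPKM, the median log2 ratio was 0.05.

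The promoters of Klf1, Epor and Pf4 are shown because each holds a GATA motif, the sequence that the product of Gata1 binds, and because they belong to genes of both lineages. The motifs searched were AGATAA and TGATAA, on both strands, in windows of 250 bases before to 50 bases after the start site, taken from RefSeq for GRCm38.p6. Capitals mark the motif, and each line runs 5′ to 3′ on the strand of the gene.
Klf1: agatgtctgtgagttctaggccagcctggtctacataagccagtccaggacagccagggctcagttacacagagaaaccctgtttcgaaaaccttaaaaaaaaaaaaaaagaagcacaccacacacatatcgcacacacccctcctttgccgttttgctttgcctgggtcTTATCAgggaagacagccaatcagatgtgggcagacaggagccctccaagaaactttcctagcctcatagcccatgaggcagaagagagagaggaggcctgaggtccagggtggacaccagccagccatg
Epor: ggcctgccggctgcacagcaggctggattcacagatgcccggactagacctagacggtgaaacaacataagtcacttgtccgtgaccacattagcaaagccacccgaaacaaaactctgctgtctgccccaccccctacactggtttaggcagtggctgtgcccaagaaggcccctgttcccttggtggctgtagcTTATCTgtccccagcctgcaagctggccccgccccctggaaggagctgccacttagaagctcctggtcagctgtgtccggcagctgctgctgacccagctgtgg
Pf4: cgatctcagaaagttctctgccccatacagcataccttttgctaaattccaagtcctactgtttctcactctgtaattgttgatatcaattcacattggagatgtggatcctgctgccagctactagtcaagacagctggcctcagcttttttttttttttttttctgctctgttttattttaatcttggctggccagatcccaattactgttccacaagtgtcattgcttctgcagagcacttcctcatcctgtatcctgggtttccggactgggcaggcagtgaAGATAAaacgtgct
The Klf1 window was chr8:84901732-84902031 on the plus strand, and its motif lay on the opposite strand, 80 bases before the start site at its far end. The Epor window was chr9:21963527-21963826 on the minus strand, with the motif on the opposite strand from 54 bases before the start site. In Pf4, at chr5:90772185-90772484 on the plus strand, the motif lay downstream of the start site, at bases 37 to 42. Of the 6 members in the RefSeq table, these 3 held a motif. Gata1, Itga2b and Tfrc, the last with a pair of windows, did not. A motif was found in 18.6% of all 32851 promoter windows of the same length, and a match describes the letters and not a bound site.

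Most of the 8 genes were lower in 4T1-GMP, and fewer of them stayed above 1 RPKM there. In NTB-GMP, 2 of the 8 genes, Epor and Pf4, were near 0, where 57.5% of all symbols were. In 4T1-GMP, 5 of the 8, Gata1, Klf1, Epor, Car1 and Pf4, were near 0, where 58.1% of all symbols were. Epor and Pf4 were the 2 genes near 0 in both libraries, against 56.3% of all symbols.

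**Figure D1:**
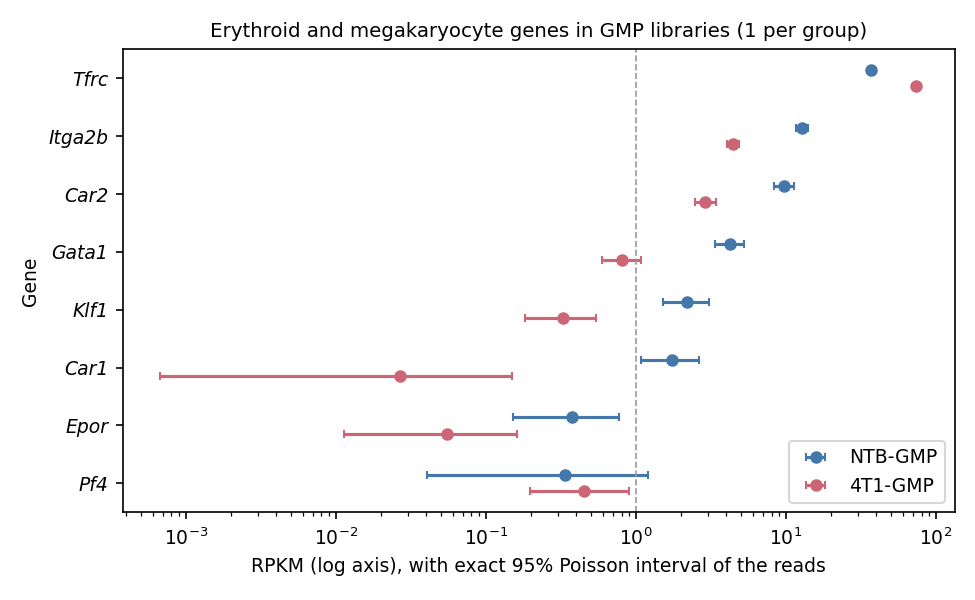
RPKM of each of the 8 lineage genes (rows) on a log axis, in NTB-GMP (blue) and 4T1-GMP (red), 1 library per group. Bars are exact 95% Poisson intervals of the reads, the dashed line marks 1 RPKM, and only Tfrc and Pf4 have the red point to the right of the blue one.

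Gata1 lies at chrX:7959260-7978071 on the minus strand (GENCODE M21, GRCm38, as for all genes below). It stood at 4.23 RPKM in NTB-GMP against 0.806 RPKM in 4T1-GMP, from 82 and 46 reads. The 95% Poisson intervals of the levels, 3.37 to 5.26 RPKM and 0.590 to 1.07 RPKM, did not overlap. Its level in 4T1-GMP was 5.26-fold lower (interval, 3.62 to 7.71), a log2 ratio of -2.26. Of the 10378 genes with a mean of at least 1 RPKM, 0.838% had a lower ratio, but Gata1 reached that mean only through NTB-GMP.

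Klf1, at chr8:84901928-84905291 on the plus strand, acts downstream of Gata1 in red cell development. Its level was 2.18 RPKM in NTB-GMP against 0.326 RPKM in 4T1-GMP, from 34 and 15 reads, which put it near 0 in the tumor-bearing library alone. The difference was 6.68-fold (interval, 3.54 to 13.2), with a log2 ratio of -2.42. Both lineage factors were thus lower by sizes whose intervals overlapped.

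Among the receptors, Epor encodes the erythropoietin receptor, which red cell precursors need to survive, and lies at chr9:21958897-21963506 on the minus strand. It had 0.376 RPKM in NTB-GMP against 0.0547 RPKM in 4T1-GMP, from 7 and 3 reads. The ratio of the RPKM was 6.88-fold lower in 4T1-GMP, with a wide interval of 1.57 to 41.2. Epor was near 0 in both libraries, and 53.5% of all symbols had a lower value than it in NTB-GMP.

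Tfrc behaved differently from the other receptor gene. It encodes the transferrin receptor CD71, which brings iron into dividing cells of many kinds and is highest in red cell precursors, and lies at chr16:32608920-32632794 on the plus strand. Its level was 36.6 RPKM in NTB-GMP against 73.0 RPKM in 4T1-GMP, from 1833 and 10761 reads, and was 1.99-fold higher in 4T1-GMP. The 95% interval of its log2 ratio was 0.92 to 1.07. Tfrc ranked first of the 8 in both libraries, above 93.1% of all symbols in NTB-GMP and 96.4% in 4T1-GMP. At its log2 ratio of 0.99 it lay just under a 2-fold rise, which 3.25% of genes with a mean of at least 1 RPKM reached.

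The genes Car1 and Car2 encode carbonic anhydrases, cytosolic enzymes that interconvert carbon dioxide and bicarbonate and are abundant in red cells. Both lie on chromosome 3, Car1 at chr3:14766216-14808368 on the minus strand and Car2 at chr3:14886273-14900770 on the plus strand. Car1 had 1.73 RPKM in NTB-GMP, from 22 reads, and 0.0267 RPKM in 4T1-GMP, from 1 read. That 1 read was under the 3 reads, or 0.0801 RPKM, taken as detected. The ratio of the RPKM was 64.9-fold lower with an interval of 10.5 to 2677, and the size of the difference was poorly determined. Car2 had 9.71 RPKM in NTB-GMP against 2.90 RPKM in 4T1-GMP, from 177 and 156 reads, a 3.35-fold lower level (interval, 2.68 to 4.18). Car2 is also used by osteoclasts and other cells, and it stayed above 1 RPKM in both libraries. Both enzymes were lower in 4T1-GMP, and their intervals did not overlap, so that the difference of Car1 was the larger.

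The remaining members are megakaryocyte genes. Itga2b encodes CD41, the alpha chain of the platelet fibrinogen receptor, and lies at chr11:102453297-102470122 on the minus strand. It had 12.8 RPKM in NTB-GMP against 4.43 RPKM in 4T1-GMP, from 449 and 457 reads, a 2.90-fold lower level (interval, 2.54 to 3.31) and a log2 ratio of -1.51. Pf4, the gene of the platelet chemokine platelet factor 4, lies at chr5:90772435-90773383 on the plus strand. It had 0.334 RPKM in NTB-GMP against 0.453 RPKM in 4T1-GMP, from 2 and 8 reads. The interval of its log2 ratio, -1.89 to 3.71, spanned 0 and held the ratio of Itga2b, and a difference was not detectable at this depth. Its 2 reads in NTB-GMP were below the 3 reads, or 0.501 RPKM, taken as detected.

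**Figure D2:**
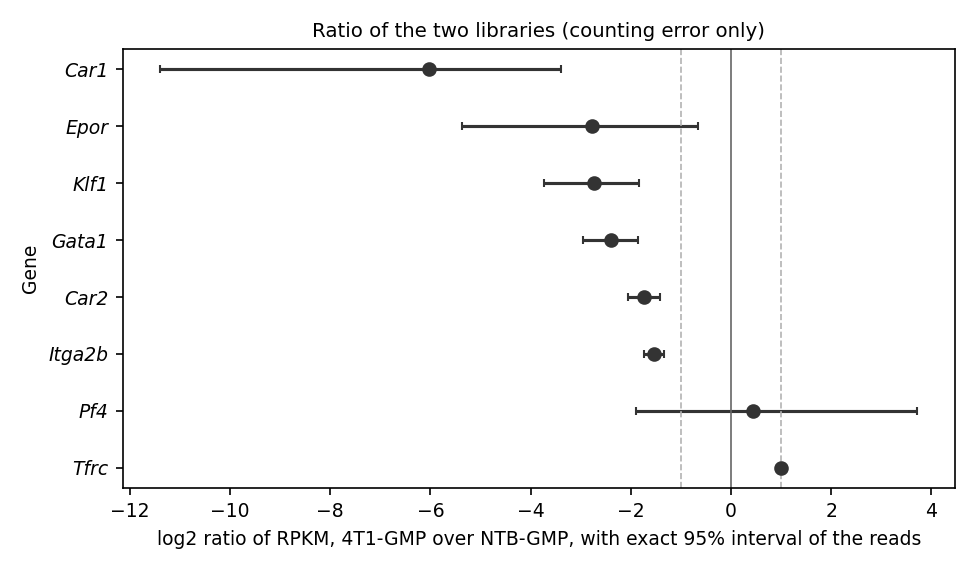
Log2 ratio of RPKM, 4T1-GMP over NTB-GMP, without an added constant, for the 8 genes (rows), with exact 95% intervals of the reads as bars. Solid and dashed lines mark 0 and 2-fold, and 7 of the 8 intervals leave out 0, all but that of Pf4.

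By level, the order in NTB-GMP was Tfrc, Itga2b, Car2, Gata1, Klf1, Car1, Epor and Pf4. The Poisson intervals overlapped between the neighbors Klf1 and Car1, and between Epor and Pf4. In 4T1-GMP the order was Tfrc, Itga2b, Car2, Gata1, Pf4, Klf1, Epor and Car1, with overlap from Gata1 to Pf4, from Pf4 to Klf1 and from Epor to Car1. The first 4 places were held by the same genes in both libraries, and Car1 moved from 1.73 RPKM to the last place. For scale, Mpo, the myeloperoxidase gene of the GMP program, stood at 5163 RPKM in NTB-GMP against 5625 RPKM in 4T1-GMP. Gata1 amounted to 0.0820% of the Mpo level in NTB-GMP and 0.0143% in 4T1-GMP, and Itga2b to 0.249% and 0.0788%.

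In all, 6 of the 8 genes were lower in 4T1-GMP, against 48.6% of the 14833 genes above 0 in either library. The same 6 were at least 2-fold lower on the scale with 0.1 added, against 8.4% of those genes. The median log2 ratio of the 8 was -1.66. A mean of at least 1 RPKM was reached by 5 of the 8, Gata1, Klf1, Car2, Tfrc and Itga2b, and by Gata1 and Klf1 only through NTB-GMP. In bulk RNA, fewer cells of a type and less RNA per cell cannot be told apart.

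**Figure D3:**
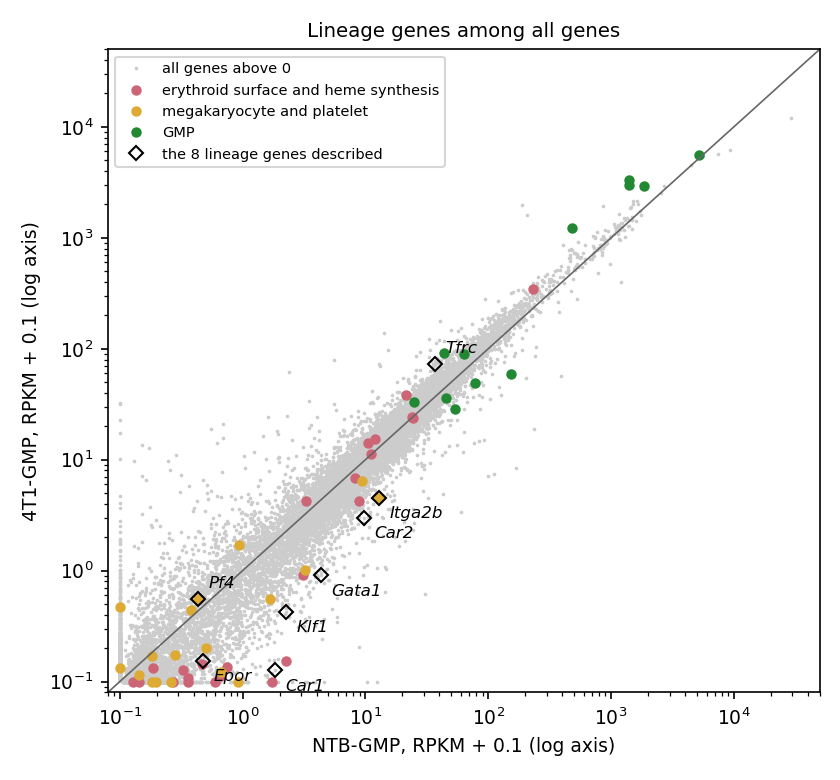
RPKM plus 0.1 of each gene above 0 in NTB-GMP (horizontal) and 4T1-GMP (vertical), log axes, with the diagonal marking equal levels. Diamonds are the 8 genes, 6 of them below the diagonal, and colored points are erythroid surface and heme synthesis, megakaryocyte and platelet, and GMP genes.

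The other transcription factors of the lineage ranged from lower to somewhat higher in 4T1-GMP. The list of 15 held Gata1 and Klf1, and all 15 had a mean of at least 1 RPKM. Of the remaining 13, 5 were at least 2-fold lower, none was 2-fold higher, and the median log2 ratio was -0.54. Over all genes with that mean, 4.92% were at least 2-fold lower, and over genes above 0 in either library 8.4% were. Gfi1b, a repressor required for both red cell and platelet formation, had 3.07 RPKM in NTB-GMP against 0.219 RPKM in 4T1-GMP, a log2 ratio of -3.31. Zfpm1, the Gata1 cofactor, had 5.63 and 0.886 RPKM, a log2 ratio of -2.54. Both Gfi1b and Zfpm1 reached a mean of 1 RPKM only through NTB-GMP. Gata2, a GATA factor of stem cells, mast cells and early megakaryocytes that was named after its values were seen, had 29.5 and 5.14 RPKM. The factors with the highest levels, which myeloid progenitors also use, differed little. Myb had 360.0 RPKM in NTB-GMP against 335 RPKM in 4T1-GMP, and Lmo2 had 111 and 101 RPKM. Lyl1 had 67.5 and 71.9 RPKM, and its log2 ratio of 0.09 became -0.07 without the Rn45s reads. Fli1, a factor of megakaryocytes and other blood cells named after its values were seen, was the highest by ratio, with 53.4 and 75.7 RPKM.

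Of the late red cell genes, all 9 globin genes measured, 6 adult and 3 embryonic, were listed at 0 in both libraries. A zero in these values does not show absence, because Eif3j1 and Eif3j2, a near-identical gene pair for a translation factor of every cell, were also listed at 0, and adult globin genes are near-identical copies too. All 12 housekeeping genes looked up were above 0, with 21.0 RPKM as the lowest value. Of 15 red cell membrane and surface genes, 10 were near 0 in both libraries, a share not far from the 56.3% of all symbols. Of the 15, 14 were lower in 4T1-GMP, and 11 were at least 2-fold lower with 0.1 added, where 8.4% of genes above 0 were. Among the 14, Aqp1, Epb4.2 and Trim10 had 1 read in NTB-GMP and 0 in 4T1-GMP, under the 3 reads taken as detected. Aqp1 was also among the 11. Aqp1, Epb4.2 and Trim10 were named after their values were seen. Kel, a blood group antigen gene, had 2.15 RPKM in NTB-GMP against 0.0530 RPKM in 4T1-GMP, from 55 and 4 reads. Icam4, an adhesion gene of red cell precursors, had 3.03 and 0.808 RPKM, and Eng, a TGF-beta coreceptor gene, had 8.83 and 4.12 RPKM. Both Kel and Icam4 reached a mean of 1 RPKM only through NTB-GMP. Epb4.1, which encodes a membrane skeleton protein made in most cells, had 23.9 RPKM in both.

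Heme and iron genes did not share that direction. Of 9 heme synthesis genes, 8 had a mean of at least 1 RPKM, none of them differed by 2-fold, and their median log2 ratio was 0.36, or 0.20 once Rn45s reads were removed from the library sizes. Alas1, the first enzyme of the pathway in most cells, had 231 RPKM in NTB-GMP against 342 RPKM in 4T1-GMP. Urod, a later enzyme of the pathway, had 24.2 and 23.5 RPKM. The red cell form of the first enzyme, Alas2, named after its values were seen, stood at 0.496 RPKM in NTB-GMP, from 10 reads. It was listed at 0 in 4T1-GMP. By the counting interval of its reads, Alas2 was at least 6.61-fold lower in 4T1-GMP. Its level in NTB-GMP was 9.83-fold above the floor of 3 reads in 4T1-GMP, a ratio that leaves out the counting error of the 10 reads. Of 12 iron genes, Tfrc included, the log2 ratio had a median of 0.01, which became -0.15 with Rn45s left out. Slc40a1, the iron exporter ferroportin, was the one iron gene at least 2-fold higher, with 11.5 RPKM in NTB-GMP against 32.1 RPKM in 4T1-GMP. The ferritin chain genes Ftl1, with 477 and 782 RPKM, and Fth1, with 146 and 136 RPKM, were the highest of the list.

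Signaling genes downstream of Epor and related cytokine receptors were read next. Of 10, Epor included, 6 had a mean of at least 1 RPKM and none of these differed by 2-fold, with a median log2 ratio of -0.14. Epor was not among these 6. Pim1, a kinase gene induced by cytokine signaling, had 35.5 RPKM in NTB-GMP against 68.0 RPKM in 4T1-GMP. Stat5a had 23.8 and 19.3 RPKM, and Stat5b had 23.8 and 17.5 RPKM.

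Of 21 megakaryocyte and platelet genes, Pf4 and Itga2b included, 16 were near 0 in both libraries, against 56.3% of all symbols. Of these 16, 3 were listed at 0 in both. Among the 18 genes above 0, 13 were lower and 5 higher in 4T1-GMP, against 48.6% lower over all genes above 0. On the scale with 0.1 added, 7 of the 18 were at least 2-fold lower, Itga2b among them, against 8.4% of all genes above 0. Ppbp and Sdpr, among these 7, had 1 read in NTB-GMP and 0 in 4T1-GMP, as had Clec1b and Tubb1, among the 13 lower. Those reads were under the 3 taken as detected. The gene P2ry12 alone was at least 2-fold higher, listed at 0 in NTB-GMP and at 0.3705 RPKM in 4T1-GMP. Itgb3, the partner chain of CD41 in the fibrinogen receptor, had 3.13 RPKM in NTB-GMP against 0.922 RPKM in 4T1-GMP, and its log2 ratio of -1.66 was near that of Itga2b. Gp9, a subunit gene of the platelet receptor for von Willebrand factor, had 1.57 and 0.452 RPKM. Both Itgb3 and Gp9 reached a mean of 1 RPKM only through NTB-GMP. Plek, a signaling gene of platelets that leukocytes also use, had 9.21 and 6.28 RPKM. The platelet genes Selp, with 0.829 and 1.59 RPKM, and Vwf, with 0.278 and 0.343 RPKM, had higher values in 4T1-GMP, and the Vwf interval on the log2 scale, -0.35 to 1.00, included 0. P2ry12, Selp and Vwf, like Ppbp, Sdpr, Clec1b and Tubb1, were named after their values were seen.

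Among 16 carbonic anhydrase genes, 10 were near 0 in both libraries, again not far from 56.3%. Of the 13 above 0, 3 were at least 2-fold lower with 0.1 added, Car1, Car2 and Car3, against 8.4% of all genes above 0. Car3, a muscle and fat isoform named after its values were seen, had 1.09 RPKM in NTB-GMP, from 17 reads, and 0.0436 RPKM in 4T1-GMP, from 2 reads. Its ratio was 25.1-fold lower, with an interval of 5.95 to 224. By mean level the highest after Car2 were the membrane-bound forms Car9, with 4.26 RPKM in NTB-GMP against 3.35 RPKM in 4T1-GMP, and Car12, with 2.59 and 3.15 RPKM. The intervals of both log2 ratios, -0.72 to 0.04 for Car9 and -0.05 to 0.62 for Car12, included 0.

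Markers of other cells were read beside these genes, and the GMP label was checked. All 12 GMP genes were above 1 RPKM in both libraries, where 57.5% of all symbols in NTB-GMP and 58.1% in 4T1-GMP were near 0. Their summed level was 10746 RPKM in NTB-GMP against 16477 RPKM in 4T1-GMP, and Mpo was the largest part of both sums. Of the 12, 4 were lower in 4T1-GMP, against 48.6% of genes above 0 in either library. At least 2-fold differences were seen in 5 of the 12, 4 higher and 1 lower. Among the 14833 genes above 0 in either library, 734 were at least 2-fold higher and 1246 at least 2-fold lower. The neutrophil elastase gene Elane had 1853 and 2935 RPKM, Prtn3, the proteinase 3 gene, had 1399 and 3311 RPKM, and Ms4a3, a GMP marker, had 479 and 1220 RPKM. Cd34, a progenitor surface gene, had 154 and 59.4 RPKM. Also lower were Kit, with 78.5 and 49.1 RPKM, Fcgr3, with 53.1 and 28.6 RPKM, and Cebpa, with 45.6 and 35.5 RPKM. Kit and Fcgr3 encode surface markers of the gates described above. Kit, Fcgr3 and Cebpa were named after their values were seen. Mpo changed sign with scaling, from a log2 ratio of 0.12 to -0.04 with Rn45s left out.

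Mature neutrophil genes moved opposite to most of the lineage genes. With 0.1 added, 11 of 12 were at least 2-fold higher in 4T1-GMP, against 734 of the 14833 genes above 0 in either library. Not all of the 12 are granule genes. Their summed level was 514 RPKM in NTB-GMP against 4060 RPKM in 4T1-GMP, with a median log2 ratio of 3.001. The largest parts of both sums were S100a8 and S100a9, which are not granule genes. S100a9 went from 189 to 1974 RPKM, S100a8 from 208 to 1594 RPKM and Ngp from 49.4 to 147 RPKM, and the gelatinase gene Mmp9 from 0.588 to 15.6 RPKM. Mmp8, a neutrophil collagenase gene, had 0.521 and 14.1 RPKM. Both Mmp9 and Mmp8 reached a mean of 1 RPKM only through 4T1-GMP.

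Basophil, mast cell and eosinophil genes moved with the lineage genes. Of 14, 13 were lower in 4T1-GMP and 1 was listed at 0 in both. The 13 included Tpsb2, from 1 and 0 reads, and Ccr3, from 2 and 1 reads, under the 3 taken as detected. Tpsb2 and Ccr3 were named after their values were seen. Of the 13, 8 were at least 2-fold lower with 0.1 added. Over all genes above 0 in either library, 48.6% were lower and 8.4% at least 2-fold lower. Their summed level was 1976 RPKM in NTB-GMP against 738 RPKM in 4T1-GMP. Prg2, the eosinophil major basic protein gene, had 1208 and 403 RPKM, Epx, the eosinophil peroxidase gene, had 160.0 and 59.1 RPKM, and the basophil protease gene Mcpt8 had 135 and 75.6 RPKM. Ms4a2, a chain of the IgE receptor, had 47.9 and 13.1 RPKM, and Il5ra, the interleukin 5 receptor gene, had 1.82 and 0.300 RPKM. Il5ra reached a mean of 1 RPKM only through NTB-GMP. Gata1 and Gata2 are also used by basophils, mast cells and eosinophils.

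Stem and multipotent progenitor genes, a list of 10, summed to 99.04 RPKM in NTB-GMP against 56.5 RPKM in 4T1-GMP. Most of both sums was Cd48, with 64.3 and 46.3 RPKM. The study's flow gates for stem cells and multipotent progenitors took cells without CD48, so the sums do not measure those cells. Of the 10 genes, 6 were near 0 in both, not far from the 56.3% of all symbols. With 0.1 added, 4 were at least 2-fold lower, against 8.4% of all genes above 0, and 1 was at least 2-fold higher. That 1, the Sca-1 gene Ly6a, named after its values were seen, was listed at 0 in NTB-GMP and at 0.266 RPKM in 4T1-GMP. Its values came from 0 and 4 reads, and the interval of its log2 ratio, from -2.16 upward, included 0. Flt3, a cytokine receptor gene of multipotent progenitors, had 12.6 and 2.34 RPKM, and Meis1, a stem cell factor gene, had 17.1 and 4.73 RPKM. Of 10 lymphoid genes, 9 were near 0 in both libraries, against 56.3% of all symbols. Cd79b, the exception, had 14.7 and 12.4 RPKM. The part of these other cells in the values of the 8 genes was not tested.

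**Figure D4:**
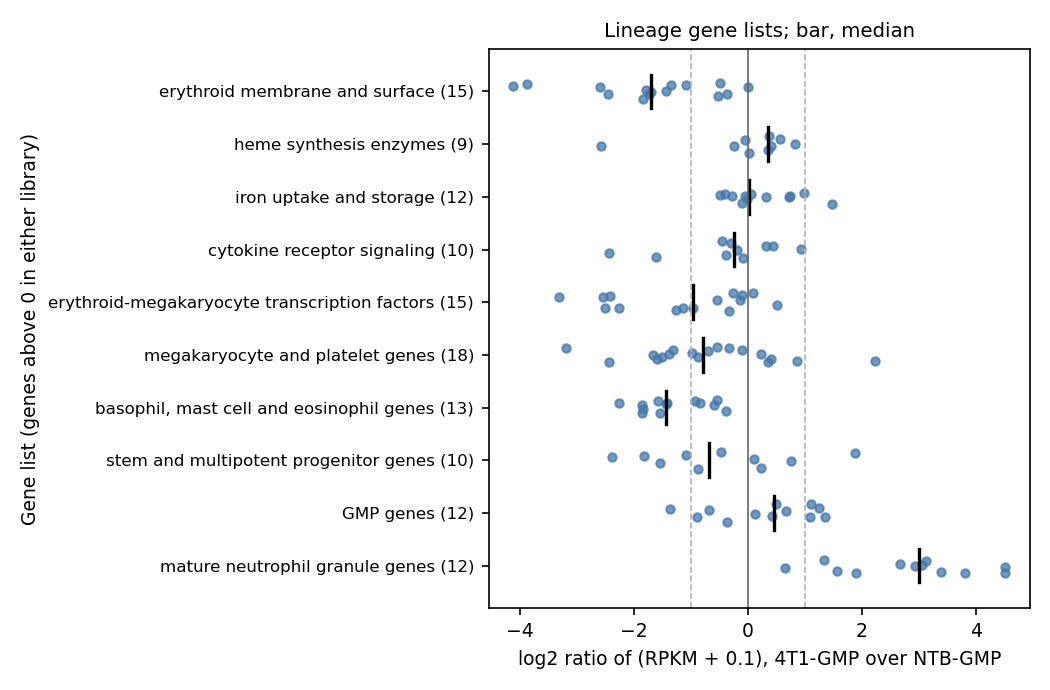
Log2 ratio of RPKM plus 0.1, 4T1-GMP over NTB-GMP, for genes above 0 in either library (points) in 10 lists, with the number of genes in brackets and the median as a black bar. Dashed lines mark 2-fold, and genes listed at 0 in 1 library are drawn with 0.1 added. Left of 0 lie 14 of 15 red cell membrane genes and all 13 basophil, mast cell and eosinophil genes. All 12 mature neutrophil genes, labeled as granule genes in the drawing, lie right of 0.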

How the data were processed

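RNA was measured in 2 libraries, 1 per group. The authors deposited RPKM per gene symbol. The submitters' processing notes name CASAVA 1.8.2, cutadapt 1.2.1, TopHat2 2.0.13, Picard 1.97, HTSeq 0.6.1, edgeR 3.12.1 and mm10. The annotation and strand setting are not given in the sources used here.

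From the digits of the RPKM, whole reads were recovered for 14833 of 14833 genes above 0, whole within a relative tolerance of 1e-12, by a procedure tested on simulated data. Gene lengths implied by the reads equalled an annotated GENCODE M21 transcript length for 111 of 1387 genes looked up in NTB-GMP and 130 of 1415 in 4T1-GMP. The library sizes found, 10180365.24 and 30016262.80, are not whole, so they are not plain read totals. Recovered reads can be low by a common factor, which only widens intervals. For 3 of the 8 genes, Gata1, Tfrc and Pf4, the factor was raised (up to 5) to bring the gene length within 2% of the longest GENCODE M21 transcript, a step chosen after seeing the data. An amount under 3 reads was not taken as detected.

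The members and the 14 lists were chosen with earlier results of these data known, and lists hold genes by general knowledge of each lineage. In each list, the 3 genes with the highest mean and the 2 largest rises and falls past 2-fold, among genes with a mean of at least 1 RPKM, were named, apart from genes said to be named after their values were seen. Some genes of these lists are not reported here. Of 165 list genes, 164 were found, with older symbols matched through the RefSeq table of GRCm38.p6. Counts of 2-fold differences in most lists were taken over genes above 0, a choice made after seeing the data, since a minimum mean admits genes through the library where they are high. No test was run, since 1 library per group gives no replicate error. Alternatives were pseudocounts of 1 and 0.01, library sizes without Rn45s, quantile normalization, centring on the median ratio, a minimum mean of 1 RPKM and other limits for near 0. Python 3.11.15, numpy 2.4.6, pandas 2.3.3, scipy 1.17.1 and matplotlib 3.10.9 were used.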

Additional observations from a re-analysis of the deposited data

How the results depend on the processing

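No paired analysis was possible because there was 1 library on either side. The direction of each of the 8 genes was kept under every alternative run. With a pseudocount of 1, the log2 ratio was -1.54 for Gata1, -1.26 for Klf1, -0.38 for Epor and -1.41 for Car1, and the median of the 8 was -1.30, since a larger constant pulls low genes toward 0. With a pseudocount of 0.01, Car1 was at -5.57. Tfrc was at 0.83 with library sizes without Rn45s and at 0.80 with quantile normalization. Requiring a mean of at least 1 RPKM left 1 higher gene, Tfrc, because Pf4 was not retained. Depth limits Epor, Car1 and Pf4 most, each with under 10 reads in at least 1 library.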
